A study of Mus musculus with 6 samples.

Results

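The MHC class I heavy chains and the genes that load them with peptide were followed as 10 genes, H2-K1, H2-D1, H2-T23, H2-M3, B2m, Tap1, Tap2, Tapbp, Nlrc5 and Erap1, taken by symbol from a table of estimated counts and holding 13 of its 20648 transcripts. After transcripts were summed by symbol these were 10 of 13730 genes. RNA came from 6 tumors of C0321, a triple-negative breast cancer (TNBC) line derived from 1 clone of a Lunatic Fringe knockout mouse on the FVB background and implanted with Matrigel into the mammary fat pad of female FVB mice aged 6 to 10 weeks, so the tumor cells of both groups carry the knockout and the hosts were immunocompetent. The 3 control mice received vehicle, which the series description calls saline, and the 3 SS mice received sulindac sulfide, spelled "Sulindac Sulfate" in the sample labels, at 60 mg/kg daily for 14 days. Polyadenylated RNA of whole tumors was sequenced, so the values mix tumor cells with stroma and leukocytes, and more cells of a type cannot be told apart from more RNA per cell. Totals ran from 8468914 to 24441522 counts per tumor.

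Class I molecules display peptides from inside the cell to CD8 T-cells and to receptors of NK cells. A heavy chain pairs with beta-2 microglobulin, the product of B2m, in the endoplasmic reticulum, where tapasin (Tapbp) holds it beside the TAP transporter, built from Tap1 and Tap2, which pumps in peptides cut by the proteasome. Erap1 trims those peptides, and Nlrc5 is the transactivator that switches on class I promoters together with the RFX and NF-Y factors bound there. Among the members, H2-K1 and H2-D1 are the classical heavy chains. H2-T23, which encodes Qa-1, and H2-M3, which presents formylated peptides, are non-classical ones. In the table, 7 of the members lay on chromosome 17, from Tapbp at 33919478 to H2-M3 at 37274486 (GRCm38), with B2m on chromosome 2, Nlrc5 on chromosome 8 and Erap1 on chromosome 13.

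The heavy chains are close copies of each other, which matters for any count assigned to a single one. The coding sequences of H2-K1 and H2-D1 were identical at 91.4% of aligned bases, those of H2-K1 and H2-T23 at 82.8%, and those of H2-K1 and H2-M3 at 72.1% (GENCODE M21 transcripts, GRCm38). The longest run shared base for base by H2-K1 and H2-D1 was 91 bases in exon 4 of both, on the minus strand at chr17:33997343-33997433 and on the plus strand at chr17:35265911-35266001. It is shown because a 75-base read from within it, taken alone, could come from either gene. The paper names paired-end libraries, and mates were not considered here or in the shares of windows below.

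Shared exon 4 run: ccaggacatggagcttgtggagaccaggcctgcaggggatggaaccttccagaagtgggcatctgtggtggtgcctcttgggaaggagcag

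Of all 75-base windows, 6.9% in H2-D1, 13.1% in H2-T23 and between 1.55% and 1.6% in the transcripts of H2-K1 also occurred in another gene, spread over 17, 25 and 13 other genes respectively. H2-L, a further heavy chain entry of the table, had no sequence in the transcripts searched, so windows that H2-D1 or other genes share with it are not in these shares. In H2-M3, B2m, Tap1, Tap2, Nlrc5 and Erap1 the share was 0%. FVB mice carry another H2 haplotype than the C57BL/6 reference, and how this moved reads between heavy chains was not tested.

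RefSeq promoters of 8 members were matched. The 250 bases before the start are shown for H2-K1, H2-D1, H2-T23 and B2m, to set the known class I elements beside each other. They are given on GRCm38.p6, 5′ to 3′ on the strand of the gene. The searches covered both strands, so that some capitals are reverse complements (ATTGG for CCAAT). Capitals mark GGGGATTCC, a kappa B core, which occurred in 0.213% of 32851 promoters of this length, TGACGC, the core of the X2 box (6.12%), the shorter TGACG that lies within it (17.8%), TTTCNNTTT, an interferon response core (9.37%), TTTCNNTTC, which differs from it in the last letter and was added after the sequences were seen (6.31%), and CCAAT, the box bound by NF-Y (33.8%).

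H2-K1, chr17:34000348-34000597, minus strand: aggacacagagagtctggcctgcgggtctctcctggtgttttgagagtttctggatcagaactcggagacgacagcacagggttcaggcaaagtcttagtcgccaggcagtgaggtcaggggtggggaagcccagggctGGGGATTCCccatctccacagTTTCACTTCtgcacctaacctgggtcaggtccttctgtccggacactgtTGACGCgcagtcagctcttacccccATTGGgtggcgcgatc
H2-D1, chr17:35262844-35263093, plus strand: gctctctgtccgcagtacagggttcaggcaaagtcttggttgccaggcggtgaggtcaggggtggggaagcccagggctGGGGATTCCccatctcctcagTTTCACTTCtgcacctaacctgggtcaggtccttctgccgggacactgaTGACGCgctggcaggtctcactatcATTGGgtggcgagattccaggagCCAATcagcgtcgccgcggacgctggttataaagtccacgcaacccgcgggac
H2-T23, chr17:36032702-36032951, minus strand: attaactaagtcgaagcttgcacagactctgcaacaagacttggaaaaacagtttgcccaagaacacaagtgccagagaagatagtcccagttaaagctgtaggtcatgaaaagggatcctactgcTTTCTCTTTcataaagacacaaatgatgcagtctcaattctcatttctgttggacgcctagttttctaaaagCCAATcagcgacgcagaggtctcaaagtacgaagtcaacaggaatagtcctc
B2m, chr2:122147437-122147686, plus strand: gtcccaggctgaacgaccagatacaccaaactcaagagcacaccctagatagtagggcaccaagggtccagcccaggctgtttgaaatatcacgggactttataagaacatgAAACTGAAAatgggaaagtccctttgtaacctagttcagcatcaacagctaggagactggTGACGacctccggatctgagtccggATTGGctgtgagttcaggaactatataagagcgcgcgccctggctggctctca

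H2-K1 and H2-D1 held the kappa B core, the interferon response core ending in C, the X2 core and CCAAT in the same order and spacing, with the kappa B core beginning 111 bases before the start in the former and 171 in the latter. H2-M3 held the core ending in C, the X2 core and CCAAT. H2-T23 held the interferon response core ending in T with CCAAT, and B2m held both of these with TGACG between them. Tap1 held TGACG and CCAAT, Tapbp held CCAAT alone and Erap1 held none of these letters. A match is a run of letters in this window and says nothing on whether a factor was bound.

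Levels per length set the members far apart. In CPM per kb, counts scaled to library size and divided by transcript length, the control means were 1482 for H2-K1, 451.6 for H2-D1, 91.1 for H2-T23 and 63.5 for H2-M3. The loading genes were far lower, with control means of 3.63 CPM per kb for Erap1, 2.99 for Tapbp, 2.15 for B2m, 1.17 for Tap2, 0.628 for Tap1 and 0.0776 for Nlrc5. B2m, the partner of every one of these heavy chains, lay between 0.116% and 0.191% of the H2-K1 level per kb in the 6 tumors. These are levels in the deposited counts, and whether B2m counts were lost before deposit was not tested. B2m was near Tapbp in level. Its range overlapped that of Tapbp, so the order of these neighbours was not separated. The 6 values of H2-K1, from 1287 to 2459 CPM per kb, lay above all of H2-D1, from 401 to 843.1 CPM per kb. That order depends on how reads were divided between H2-D1 and H2-L, an entry in the same interval. Summed, H2-D1 and H2-L were at 9307 to 17210 CPM, above H2-K1 at 2052 to 3921 CPM.

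**Figure D1:**
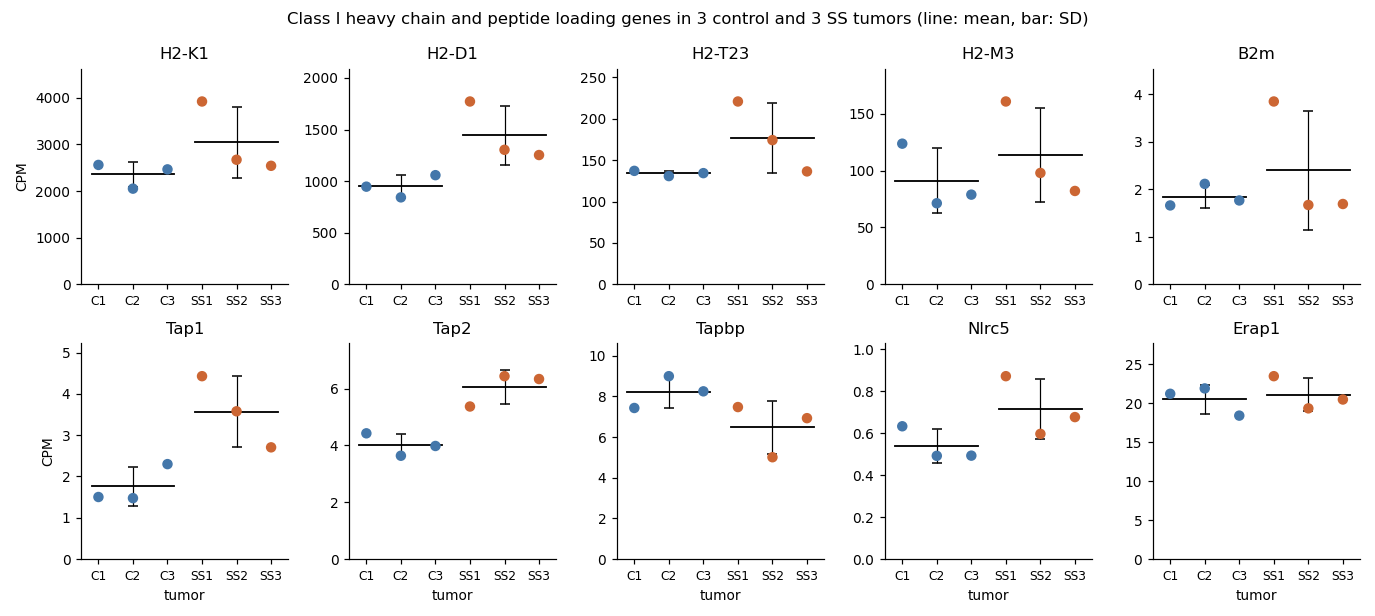
CPM on a linear axis from 0 for each of the 10 genes in control tumors C1 to C3 (blue) and SS tumors SS1 to SS3 (orange); lines are group means and bars SDs (n = 3). SS tumor 1 is the highest for 8 of the 10 genes, and the groups are apart for H2-D1, Tap1 and Tap2 (SS was above control in this way for 6.51% of all genes tested).

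Of the 2 classical heavy chains among the members, H2-D1 was separate between the groups, and H2-K1 was not. H2-D1 was at 946.7, 842.9 and 1058 CPM in control tumors 1, 2 and 3, against 1772, 1304 and 1253 CPM in SS tumors 1, 2 and 3. Every SS tumor lay above every control tumor. The means were 949.3 ± 107.6 CPM (SD, n = 3) and 1443 ± 286.1 CPM (SD, n = 3), which is 1.52-fold, or a log2 fold change of 0.60 (SE 0.16), with a 95% interval from 0.24 to 0.97. Its unadjusted p was 0.0053 and its adjusted p 0.760 in the quasi-likelihood test of edgeR (Benjamini-Hochberg over 10902 genes), while DESeq2's Wald test gave an adjusted p of 0.035.

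H2-K1 was at 2560, 2052 and 2465 CPM in control tumors, against 3921, 2671 and 2542 CPM in SS tumors. SS tumor 3 lay within the control range and SS tumor 1 stood far above it. The log2 fold change was 0.37 (SE 0.18, 95% interval -0.05 to 0.79), and the unadjusted p was 0.076 (edgeR). Without SS tumor 1 the log2 fold change was 0.14 for H2-K1 and 0.43 for H2-D1.

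The table placed a further heavy chain, H2-L, in the same interval of chromosome 17 as H2-D1. H2-D1 ran from 35263094 to 35267498 and H2-L from 35263123 to 35266731, both on the plus strand, so all 3609 bases of H2-L overlapped H2-D1. H2-L carried most of the heavy chain counts, at 11068, 8464 and 10481 CPM in control tumors, against 15438, 11537 and 11534 CPM in SS tumors. Its SS tumors lay above its control tumors, and its log2 fold change was 0.36 (SE 0.15, edgeR, unadjusted p = 0.048, adjusted p = 0.771), and 0.20 without SS tumor 1. H2-D1 made up 7.88%, 9.06% and 9.17% of the sum of both entries in control tumors and 10.3%, 10.15% and 9.80% in SS tumors. The share of H2-D1 was therefore higher in all SS tumors, by 1.38 percentage points (two-sided exact permutation test, p = 0.1, the smallest that 3 against 3 allows).

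Counted as 1 feature, H2-D1 and H2-L differed by 0.38 (SE 0.15) on the log2 scale, against 0.60 for H2-D1 alone. The adjusted p of the joint feature was 0.771 in the quasi-likelihood test of edgeR (Benjamini-Hochberg) and 0.396 in DESeq2's Wald test, so the call that DESeq2 made for H2-D1 did not hold for the locus. This joint feature was added after the data had been seen. How the authors' counting divided reads between the entries was not tested.

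**Figure D2:**
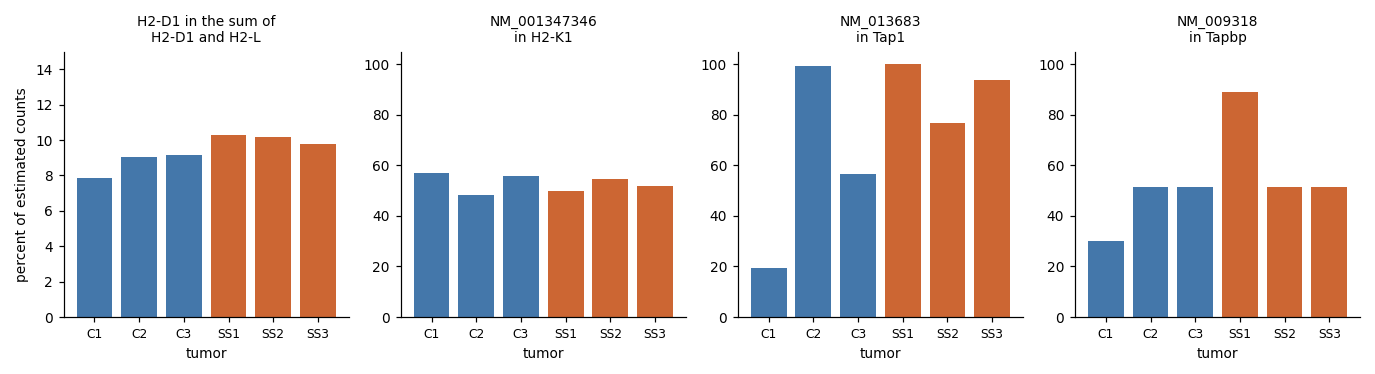
Percent of estimated counts in control (C1 to C3, blue) and SS tumors (SS1 to SS3, orange): H2-D1 in the sum of H2-D1 and H2-L (axis to 15%), and 1 of 2 transcripts of H2-K1, Tap1 and Tapbp. The share of H2-D1 is between 7.88% and 9.17% in control and between 9.80% and 10.3% in SS tumors, and the Tap1 share ranges from 19.5% to 99.1% among control tumors alone.

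A sum over class I heavy chains does not depend on how reads were divided among the genes summed, though H2-D1 and H2-T23 also shared windows with copies outside the sum, such as Gm7030 (75 and 86 windows) and Gm11127 (67 and 72 windows). Over 21 genes, the 4 member heavy chains and 17 others of the H2-K, D, L, Q, T and M regions, the sum was 16613, 12813 and 15713 CPM in control tumors and 24529, 17922 and 17409 CPM in SS tumors. Every SS tumor was above every control tumor, and class I heavy chains took between 1.28% and 2.45% of scaled counts. The mean log2 difference was 0.40, with SDs of 0.20 (control, n = 3) and 0.27 (SS, n = 3), or 1.32-fold (two-sided exact permutation test, p = 0.1, the smallest possible). Over the 4 member heavy chains alone the log2 difference was 0.42. Without H2-L it was 0.48, and without SS tumor 1 it was 0.24.

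**Figure D3:**
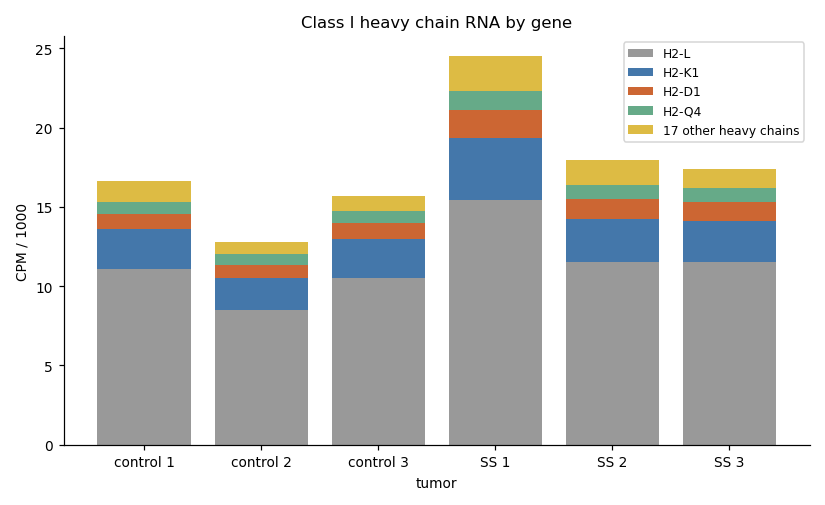
Stacked bars of class I heavy chain RNA for each tumor, in units of 1000 CPM, split into H2-L, H2-K1, H2-D1, H2-Q4 and 17 other genes. H2-L makes up between 62.9% and 66.7% of each bar, and the 3 SS bars, from 17409 to 24529 CPM, are taller than the control bars.

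For the non-classical members the groups overlapped. H2-T23, the Qa-1 heavy chain that NK cells and CD8 T-cells read through NKG2A receptors, was at 137.1, 130.7 and 134.3 CPM in control tumors, against 220.9, 174.2 and 136.4 CPM in SS tumors. The control tumors lay close together, and SS tumor 3 lay among them. Its log2 fold change was 0.40 (SE 0.17, edgeR, unadjusted p = 0.044, adjusted p = 0.771), and without SS tumor 1 it was 0.21 with an unadjusted p of 0.171 (edgeR). H2-M3 was at 123.6, 71.3 and 78.8 CPM against 160.7, 97.9 and 82.1 CPM, with groups that overlapped and a log2 fold change of 0.32 (95% interval -0.36 to 1.00). Without SS tumor 1 the H2-M3 difference was -0.02.

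Of the other heavy chains, 16 of 17 were tested, 13 were higher and 3 lower in SS tumors, and 6 had an unadjusted p under 0.05, all higher, beside 3.19% of all genes tested that were higher at that p. These were H2-L, H2-Q1, H2-Q4, H2-Q6, H2-Q10 and H2-M2. H2-Q4, the second most abundant of them, was at 754.6, 639.1 and 749.7 CPM in control tumors, against 1198, 841.5 and 837.0 CPM under SS, a log2 fold change of 0.42. H2-M2 was at 83.5, 12.3 and 63.4 CPM against 302.6, 226.4 and 179.7 CPM, with a log2 fold change of 2.16 and a standard error of 0.59. H2-Q10 was at 2.77, 2.21 and 2.13 CPM against 6.53, 13.0 and 4.99 CPM, a log2 fold change of 1.78. H2-Q6 was higher by 1.11 and H2-Q1 by 0.65 on the log2 scale, with groups that overlapped. Without SS tumor 1 the log2 fold change was 0.23 for H2-Q4 and 0.32 for H2-Q1. Several of these genes are near-identical copies, so the values of single ones are uncertain and the genes counted are not independent of each other. None of the 16 passed adjustment in edgeR, where the smallest adjusted p among them was 0.679 with Benjamini-Hochberg adjustment.

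B2m was measured with few counts, between 14 and 53 per tumor. It was at 1.66, 2.11 and 1.76 CPM in control tumors, against 3.85, 1.67 and 1.69 CPM in SS tumors. SS tumor 1 alone stood above the rest, and the other 2 SS tumors lay within the control range. The log2 fold change was 0.39 (SE 0.48, 95% interval -0.72 to 1.49), and without SS tumor 1 it was -0.14. That interval holds the log2 fold changes of all 4 heavy chains as well as 0.

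The peptide transporter genes were both higher in every SS tumor. Tap1 was at 1.502, 1.475 and 2.30 CPM in control tumors, against 4.43, 3.58 and 2.70 CPM in SS tumors, from between 19 and 61 counts per tumor. The log2 fold change was 1.01 (SE 0.40), or 2.02-fold (edgeR, unadjusted p = 0.037, adjusted p = 0.771). Tap2 was at 4.43, 3.64 and 3.98 CPM against 5.37, 6.44 and 6.34 CPM, a log2 fold change of 0.59 (SE 0.26) and an unadjusted p of 0.055 (edgeR). Here SS tumor 1 was the lowest of the SS tumors, and without it the log2 fold change of Tap2 was 0.67. Without SS tumor 1, Tap1 was at 0.82.

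For tapasin, the trimming peptidase and the transactivator the groups overlapped. Tapbp was at 7.43, 8.99 and 8.25 CPM in control tumors, against 7.48, 5.01 and 6.93 CPM in SS tumors, with a log2 fold change of -0.34 (95% interval -0.90 to 0.22). Erap1 was at 21.2, 21.9 and 18.4 CPM against 23.4, 19.3 and 20.5 CPM, a log2 fold change of 0.04 with an interval from -0.32 to 0.41. Nlrc5 had between 5 and 12 counts per tumor, at 0.632, 0.492 and 0.492 CPM against 0.871, 0.596 and 0.676 CPM, and was under edgeR's filter on low counts. Fitted with no filter, Nlrc5 was at 0.41 on the log2 scale (SE 0.68, edgeR, unadjusted p = 0.568).

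The division of reads between transcripts varied most where counts were few. For Tap1, transcript NM_013683 held 19.5%, 99.1% and 56.6% of the estimated counts in control tumors and 99.98%, 76.6% and 93.8% in SS tumors. Its log2 fold change was 1.62 and that of the other transcript, NM_001161730, was -1.18, with standard errors of 0.66 and 1.66. For Tapbp, NM_009318 held 51.3% in 4 tumors to 3 digits, 30.3% in control tumor 1 and 89.0% in SS tumor 1, and the log2 fold changes were 0.21 for it and -1.06 for NM_001025313. Both transcripts of H2-K1 were well covered, and NM_001347346 held between 48.4% and 57.0% in all tumors. They had log2 fold changes of 0.43 for NM_001001892 and 0.30 for NM_001347346.

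Over the 9 tested members, 8 were higher and 1 lower in SS tumors, with a median log2 fold change of 0.39, where the median over all 10902 genes was -0.0013. An unadjusted p under 0.05 was found for 3 members, H2-D1, H2-T23 and Tap1, all higher, beside 3.19% of all genes. The groups were apart, with SS above control, for H2-D1, Tap1 and Tap2, beside 6.51% of all genes (6.4% had every SS tumor below every control tumor). At an adjusted p under 0.05, the quasi-likelihood test of edgeR (Benjamini-Hochberg) called 0 members and 0% of all genes (693 genes had an unadjusted p under 0.05), and DESeq2's Wald test called H2-D1 and 0.58% of the 6039 genes to which it gave an adjusted p. The members B2m, Tap1, Tap2 and Tapbp were given no adjusted p by DESeq2. Without SS tumor 1 the median of the members was 0.14, 5 of 9 were higher and 1 had an unadjusted p under 0.05. That number was also 1 without control tumor 1, control tumor 2 or SS tumor 2, 2 without control tumor 3 and 4 without SS tumor 3.

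**Figure D4:**
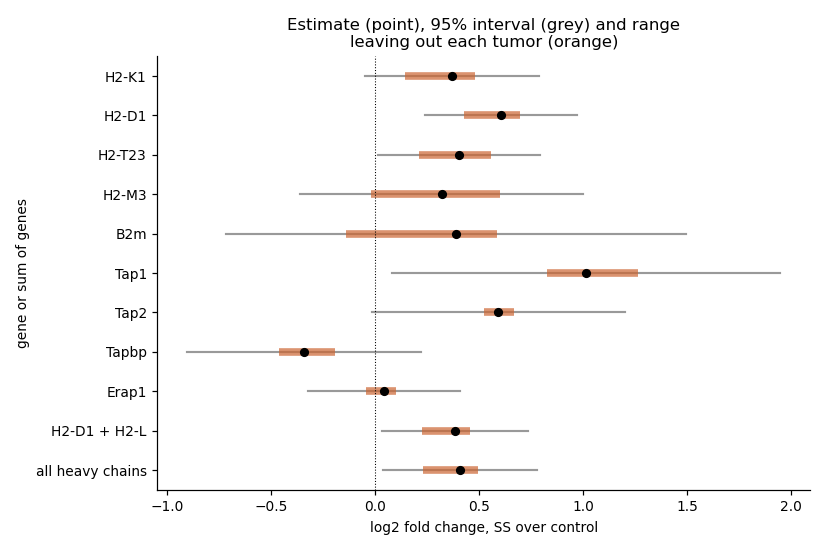
Log2 fold change of SS over control for the 9 tested genes, for H2-D1 and H2-L as 1 feature and for all heavy chains as 1 feature. Points are edgeR estimates, grey lines 95% intervals and orange bands the range when each tumor is left out in turn; the bands of H2-M3, B2m and Erap1 cross 0.

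SS tumor 1 was the highest for 8 of the 10 members and control tumor 2 the lowest for 7. The genes whose pattern over the 6 tumors was most like the mean of the tested members followed the same tumor. They were Fam212b, Eps8, Pisd, Cd82 and Emc10, with Pearson r between 0.975 and 0.986 (n = 6 tumors, a description without a test), and SS tumor 1 was the highest for each. Emc10, a subunit of the complex that inserts membrane proteins in the endoplasmic reticulum, was at 48.9, 46.4 and 46.3 CPM in control tumors, against 62.0, 52.9 and 49.1 CPM in SS tumors.

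Around the members, a list of 12 genes held chaperones of the endoplasmic reticulum together with the intramembrane protease Sppl2a and the export receptor Bcap31. All 12 were tested, 3 were higher and 9 lower, and 0 had an unadjusted p under 0.05, with a median log2 fold change of -0.08. Pdia3, the oxidoreductase bound to tapasin, had a log2 fold change of -0.08 (95% interval -0.35 to 0.19), and Hspa5 of -0.12 (-0.57 to 0.32). Among genes that supply peptides, 6 of 12 were higher and 6 lower, with a median of 0.06. The immunoproteasome subunits had log2 fold changes of 0.67 for Psmb9, 0.36 for Psmb10 and 0.27 for Psmb8. The subunits of the proteasome activator PA28 were at 0.39 for Psme2, 0.18 for Psme1 and -0.13 for Psme3. These genes were named after their values were seen. Each had overlapping groups and an unadjusted p above 0.05 in edgeR. Without SS tumor 1 the values were 0.27, 0.22, -0.029, 0.17, 0.0097 and -0.16 in that order. Tpp2, a cytosolic peptidase, was lower in every SS tumor, at 132.0, 149.9 and 144.8 CPM against 124.8, 118.9 and 112.6 CPM, a log2 fold change of -0.26 (edgeR, unadjusted p = 0.031, adjusted p = 0.771), beside 3.16% of all genes that were lower at that p. Npepps, the most abundant of this list, was at -0.11 (-0.38 to 0.16).

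The factors that act on class I promoters, with interferon and NF-kB signaling, were 20 genes, of which 17 were tested, 13 higher and 4 lower, and 0 had an unadjusted p under 0.05. Their median log2 fold change was 0.09. Jak1, the most abundant, was at -0.18 (95% interval -0.42 to 0.06), and Ezh2, a histone methyltransferase that can silence class I genes, at 0.09 (-0.19 to 0.37).

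**Figure D5:**
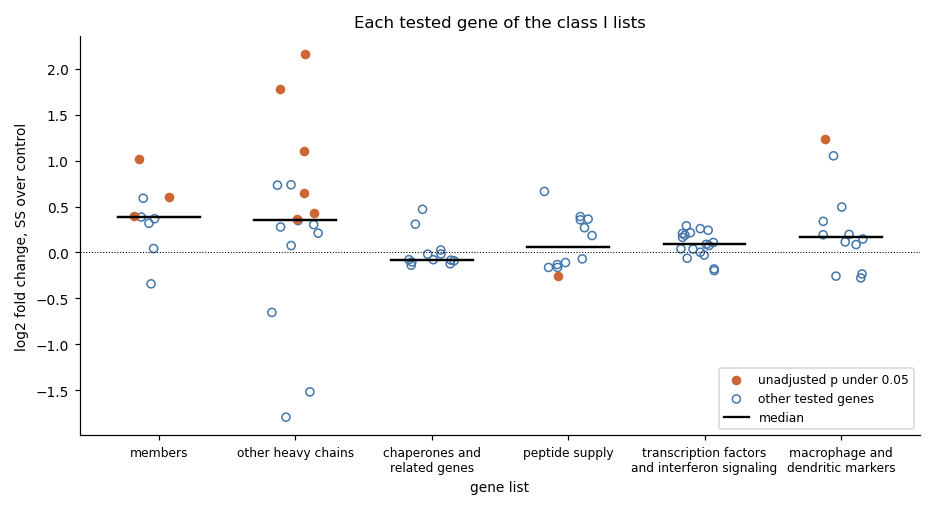
Log2 fold change of SS over control for every tested gene of 6 lists, each a point, with black bars for medians; orange points have an unadjusted p under 0.05 in edgeR. The medians are 0.39 for the members, 0.35 for the other heavy chains, -0.08 for the chaperone list, 0.06 for peptide supply, 0.09 for the transcription list and 0.17 for macrophage and dendritic markers, and without SS tumor 1 they are 0.14, 0.20, -0.11, -0.05, 0.13 and 0.11; differences between lists were not tested.

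Leukocytes carry much class I RNA, so their markers were read beside the members. Of 16 macrophage and dendritic cell markers 14 had a row and 12 were tested, 9 of them higher in SS tumors. Their summed level was 967.6 to 1139 CPM in control and 1059 to 1341 CPM in SS tumors, highest in SS tumor 1. Itgax, which encodes CD11c, was at 66.9, 49.4 and 50.9 CPM against 172.9, 131.4 and 89.6 CPM, a log2 fold change of 1.24. Its unadjusted p was 0.0010 and its adjusted p 0.679 in edgeR, and its adjusted p was 2.8e-04 in DESeq2's Wald test. Of the 12, it alone had an unadjusted p under 0.05 in edgeR, beside 3.19% of all genes that were higher at that p. Ptprc, the pan-leukocyte CD45, overlapped at 64.2, 41.4 and 45.4 CPM against 59.8, 54.7 and 58.2 CPM. Of 16 T and NK cell markers 4 had a row, 2 of them tested (Cd3e and Lck, with log2 fold changes of -0.82 and -0.73 that were 0.32 and 0.30 without control tumor 1), summing to 16.9 to 83.2 CPM in control and 11.7 to 33.5 CPM in SS tumors, and of 10 B cell and neutrophil markers 5 had a row, at 1.08 to 10.12 CPM and 2.83 to 4.56 CPM. Cd4 was at 0 in SS tumor 2, Cd2 in control tumors 2 and 3 and SS tumors 2 and 3, and Cd79a at 0 in all tumors but control tumor 1. Of the 8 tested stromal and fat pad markers 3 were higher, and the list summed to 12112 to 18209 CPM in control and 8829 to 17386 CPM in SS tumors, lowest in SS tumor 1. Nearly all of this sum was collagen, with Col1a1 at 7057 and Col1a2 at 1719 CPM in SS tumor 1. Both, with Dcn and Pdgfra, were lowest in that tumor, whereas Cdh5, Kdr, Plin1 and Fabp4 were not. Plin1 was at 37.8, 0.098 and 0 CPM in control and 8.06, 14.7 and 0 CPM in SS tumors. Of 14 mammary tumor markers 5 were higher. Krt18 was the only one with an unadjusted p under 0.05 (log2 fold change -0.50, edgeR), beside 3.16% of all genes that were lower at that p. The list summed to 7290 to 8849 CPM in control and 6614 to 9580 CPM in SS tumors. The line is described as mesenchymal. Vim and Krt8 were high in all tumors and Epcam was below 3 CPM. Other keratins were uneven between tumors. Krt19 was at 228.7, 10.8 and 4.51 CPM in control and 121.2, 306.1 and 11.6 CPM in SS tumors. Krt5 was at 73.1, 1.13 and 1.44 CPM in control and 33.9, 26.7 and 0 CPM in SS tumors. The part of these cells in the class I values was not tested.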

How the data were processed

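RNA-seq of 6 tumors was used, 3 control and 3 SS, grouped by the sample labels. Values are estimated counts (expected counts, not normalized) that the authors deposited for each RefSeq transcript after removing transcripts with low counts, every one in the table having at least 10 counts over the tumors. The submitters' processing notes name mm10, CASAVA 1.8.1, Bowtie2 2.2.5 and STAR 2.5.3a, and how each was used is not given in the sources used here. The paper's methods name quantile normalization and a t statistic, which were run here only as an alternative with limma.

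Transcripts were summed by symbol and rounded. Groups were compared with edgeR 4.0.16 in R 4.3.3 (TMM scaling, filterByExpr, quasi-likelihood test, Benjamini-Hochberg adjustment over 10902 genes). CPM uses these scaled libraries, a standard error is the log2 fold change over the square root of F, and 95% intervals use its degrees of freedom. DESeq2 1.42.0, limma 3.58.1 (voom, quantile normalization), RLE and upper-quartile scaling, other filters, thinning, the replicate number as a block and leaving out each tumor were alternatives. edgeR was tested on simulated data. The labels give the tumors as separate samples, and p-values measure the spread between them. Totals make 3 counts worth 0.123 to 0.354 CPM, counting error only. Genes named are all 10 members, genes of the other class I lists with an unadjusted p under 0.05 or among the 2 highest in CPM, and the 5 outside all lists most like the members. Cell type markers are named too, as are immunoproteasome and PA28 genes picked after their values were seen. Members and lists were chosen with earlier results of these data known. Sequences came from GENCODE M21 and RefSeq on GRCm38, and 99.9% of 18245 matched transcripts lay on the same chromosome as in the table.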

Additional observations from a re-analysis of the deposited data

How the results depend on the processing

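Of the results on members and sums, 0 genes passed adjustment in edgeR under every scaling, filter and left-out tumor, while DESeq2's Wald test called 35, among them H2-D1 (log2 fold change 0.60, adjusted p = 0.035). The number of members at an unadjusted p under 0.05 was 3 under every scaling, filter and tool, though H2-D1 alone was among them each time (limma-voom and quantile normalization had Tap2 in place of H2-T23, thinning had Tap2 in place of Tap1, and DESeq2 had H2-K1 in place of Tap1), and between 1 and 4 when each tumor was left out. The median over the members lay between 0.35 and 0.39 under other settings and between 0.14 and 0.55 when each tumor was left out, lowest without SS tumor 1. Without SS tumor 1 the log2 fold change turned to -0.021 for H2-M3, -0.14 for B2m and -0.044 for Erap1, and without control tumor 3 it was -0.028 for Erap1, the ranges with each tumor left out being -0.021 to 0.60, -0.14 to 0.59 and -0.044 to 0.10. For single transcripts it turned to -1.18 for NM_001161730 of Tap1 and to 0.21 for NM_009318 of Tapbp. The cause was not tested. The summed heavy chains kept their direction, between 0.24 and 0.49 with a tumor left out, and H2-D1 and H2-L as 1 feature lay between 0.22 and 0.45, with an unadjusted p of 0.129 without SS tumor 1 and 0.109 without control tumor 2 (edgeR). Same-numbered tumors deviated together with correlations of 0.116, 0.021 and 0.077, so the numbers were not taken as pairs. With a replicate block, edgeR gave 0 genes past adjustment, 643 genes and 3 members at an unadjusted p under 0.05 (H2-D1, H2-T23 and H2-K1 in place of Tap1), and a median of 0.35 over the members. B2m and Tap1 rest on 14 to 61 counts per tumor, and how much of their error is counting error was not tested.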

Other observations

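In the deposited counts, the level of B2m lay near the middle of that of short transcripts. Of 1141 matched transcripts under 1000 bases, 50.2% had a higher mean level per kb than B2m, and their median was 2.54 CPM per kb, above that of 1.42 CPM per kb for transcripts from 2000 to below 4000 bases.

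Class I-like proteins were scarce, with 5 of 15 genes having a row and 2 tested. Mr1, which presents vitamin B metabolites to MAIT cells, was at 4.82, 4.42 and 5.34 CPM in control tumors and 2.76, 0.715 and 3.13 CPM in SS tumors, lower in every SS tumor (log2 fold change -1.12, unadjusted p = 0.060 in edgeR). Cd1d1 was at -0.29. Of 13 receptors for class I molecules only Pirb had a row, at no more than 0.435 CPM.

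The share of counts in 11 skeletal muscle genes, a list written after the data had been seen, was 0.738%, 1.41% and 0.204% in control tumors and 0.0523%, 2.92% and 1.59% in SS tumors. It was lowest in SS tumor 1, the tumor highest for most members. Its part in the class I values was not tested.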
